A study of Mus musculus with 6 samples.

Results

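The genes described here are 10 genes of the p53 response and of p53-driven apoptosis, namely Trp53, Mdm2, Cdkn1a, Ccng1, Bax, Bbc3, Pmaip1, Phlda3, Trp53inp1 and Eda2r. They were chosen by name, with earlier results of these data known, and each had a row in the table of 55367 gene names. Poly(A) RNA was sequenced from cultured cortical neurons of C57BL/6J mouse pups at postnatal day 1, grown for 2 days in vitro after astrocytes and myelin had been depleted. The 3 WT libraries came from wild-type pups, and the 3 Fmr1-KO libraries came from pups with a knockout of Fmr1, which encodes the RNA-binding protein FMRP. The libraries were prepared to ask whether targets of nonsense-mediated mRNA decay fall without FMRP. The labels gave neither the sex of the pups nor the number pooled into a library. The study describes the triplicates as independently derived, but the labels name no separate cultures or litters, so P values measure the spread between these libraries only.

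The p53 protein, encoded by Trp53, is a transcription factor that is held low by MDM2, the ubiquitin ligase that marks it for degradation. DNA damage, replication stress or trophic loss frees p53, which then raises the mRNAs of cell-cycle inhibitors such as Cdkn1a, of its own inhibitor Mdm2 and of death genes such as Bax, Bbc3 and Pmaip1. Most control of p53 acts on the protein, so the level of Trp53 mRNA is no measure of p53 activity. In the developing cortex the pathway is known for removing damaged progenitors and for the death of neurons deprived of survival signals, with the BCL2 family deciding at the mitochondrion whether caspases are switched on.

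Promoter sequence is shown first for the members in which a stretch resembling the p53 consensus was found, because p53 acts on its targets through such letters. RefSeq promoters on GRCm38.p6, each 300 bases long from 250 before to 50 after a transcript start, were matched by symbol for 8 of the 10 members, with 11 promoters in all. Trp53inp1 and Pmaip1 had no entry. The consensus, a pair of decamers with no spacer between them, was searched on both strands with at most 3 mismatches in its 20 bases. Each line gives the gene, the GRCm38 position of the stretch and 50 bases on the gene's own strand, 5′ to 3′, with the 20 matching bases in capitals.
Cdkn1a, chr17:29090913-29090962: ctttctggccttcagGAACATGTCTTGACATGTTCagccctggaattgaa
Ccng1, chr11:40755447-40755496: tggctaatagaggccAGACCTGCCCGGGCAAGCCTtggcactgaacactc
Trp53, chr11:69580269-69580318: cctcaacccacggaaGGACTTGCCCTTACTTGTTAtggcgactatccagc
Bax, chr7:45467075-45467124: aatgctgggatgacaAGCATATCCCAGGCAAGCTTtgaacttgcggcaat
Bbc3, chr7:16309471-16309520: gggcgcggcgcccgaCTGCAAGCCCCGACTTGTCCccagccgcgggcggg

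The matches in Cdkn1a and Ccng1 differed from the consensus at 1 position and began 51 and 195 bases before the start. Only 0.0883% of the 32851 RefSeq promoters searched held a match that close. The matches in Trp53, Bax and Bbc3 began 75, 211 and 97 bases before the start and had 3 mismatches, and 6.29% of all promoters held a match with at most 3. The Cdkn1a stretch lies at the upstream of the gene's 2 promoters. Bbc3 had 3 promoters, and only 1 of them held a match with at most 3 mismatches. The best matches in the promoters of Mdm2, Phlda3 and Eda2r had 5, 5 and 6 mismatches, which says only that closer letters are not in these windows. A match is a description of letters and was not tested for binding.

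Depth was alike in all libraries, with 30348556 to 35126207 counts, and 16976 genes had enough counts for the test. Fmr1, the targeted gene, was lower in all 3 Fmr1-KO libraries, at 54.2 to 61.4 CPM against 109.6 to 118.3 CPM in WT. CPM are read counts scaled to a common library size by the trimmed mean of M-values (TMM), and a gene was called where edgeR's quasi-likelihood test gave an adjusted P under 0.05. The genotypes differed widely, since 42.6% of all tested genes were called, 20.7% higher and 21.9% lower in Fmr1-KO, so a called gene is common in this comparison. Of the 12 neuronal markers, 11 were called lower, with summed levels of 6309.8 to 6406 CPM in WT and 5208 to 5471 CPM in Fmr1-KO. The other marker, Dcx of young neurons, was called higher with a log2 fold-change of 0.08, a call lost on leaving out replicate 1 or 3 of WT or replicate 3 of Fmr1-KO. All 21 markers of cycling cells were called higher, with summed levels of 1000.0 to 1052 CPM in WT and 1664 to 1724 CPM in Fmr1-KO. Of 12 neural progenitor markers, 8 were called higher, led by Eomes and Neurog2. Of the 10 microglial markers, 9 were called lower, with summed levels of 230.0 to 255 CPM in WT and 132 to 149 CPM in Fmr1-KO. Astrocyte markers were still present after the depletion, at 5741 to 5856 CPM in WT and 5093 to 5494 CPM in Fmr1-KO, with 5 of 9 called lower and 2 higher. All 9 markers of the oligodendrocyte lineage were called lower, from 1935 to 2104 CPM in WT to 1100.0 to 1186 CPM in Fmr1-KO. Of the 7 tested markers of endothelial and mural cells, 4 were called higher and 2 lower. These are bulk cultures, in which fewer cells of a type and less RNA per cell cannot be told apart.

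All 10 members passed the filter on low counts. Relative to WT, 2 were called higher in Fmr1-KO, namely Trp53 and Trp53inp1, and 1 was called lower, namely Cdkn1a. The other 7 were not called, and 5 of these had log2 fold-changes below 0. The called share of the members was 30%, against 42.6% of all tested genes and 49.2% of the 11142 genes within the members' range of mean level, 4.98 to 198.5 CPM. The median log2 fold-change (log2FC, Fmr1-KO relative to WT) of the members was -0.06, against 0.01 for all tested genes, and the median of its absolute size was 0.0751, against 0.154. The members' median was -0.0231 when Fmr1-KO replicate 3 was left out, and -0.0265 when WT replicate 2 was. The levels of the 2 genotypes did not overlap for 4 members, which were Trp53, Mdm2 and Trp53inp1 on the higher side and Cdkn1a on the lower side. Such separation was found in 51.7% of all tested genes, 25.4% on the higher and 26.3% on the lower side. All the members' changes were small, and with edgeR's test against a minimum fold-change of 1.2 no member was called.

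**Figure D1:**
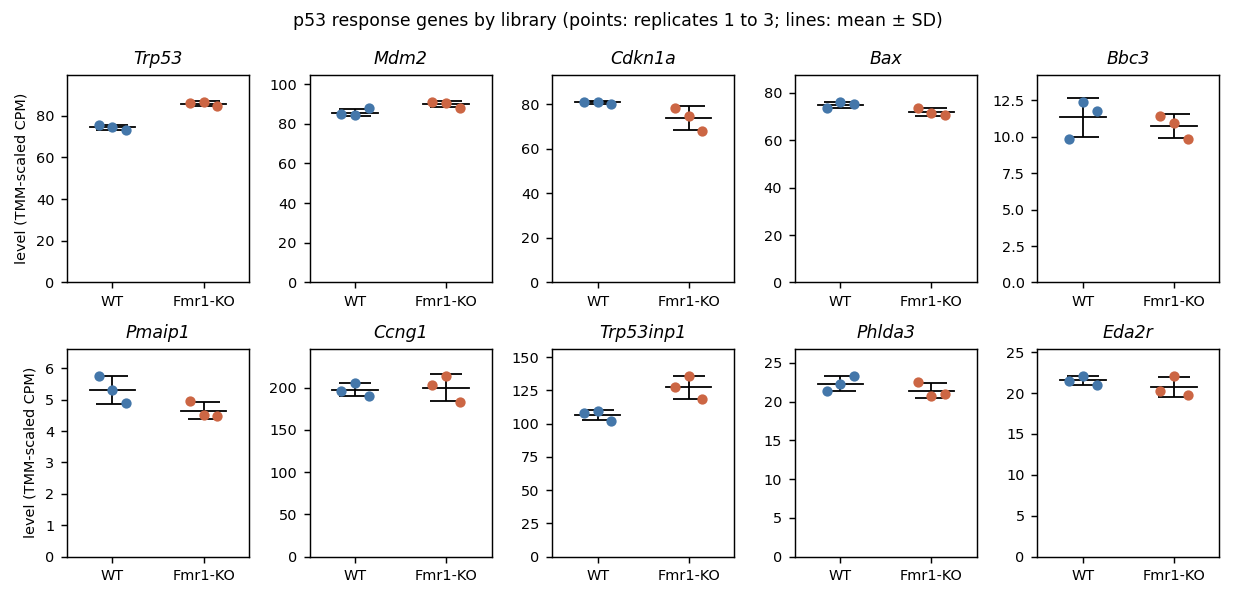
Levels of the 10 members in TMM-scaled CPM (vertical axes, from 0) in the 3 WT and 3 Fmr1-KO libraries, with points for replicates 1 to 3 from left to right and lines for the mean ± SD. The Fmr1-KO points of Trp53 sit between 84.5 and 86.8 CPM, above the WT points at 73.1 to 75.4 CPM, whereas the points of Bax, Bbc3, Pmaip1, Ccng1, Phlda3 and Eda2r overlap between the genotypes.

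Trp53 itself (chromosome 11, 69580359 to 69591873, plus strand, GRCm38) was at a higher level in Fmr1-KO. Its levels were 75.4, 74.7 and 73.1 CPM in WT replicates 1, 2 and 3, from 2621, 2470 and 2440 counts, and 86.3, 86.8 and 84.5 CPM in Fmr1-KO replicates 1, 2 and 3, from 2806, 2656 and 2940 counts. Every Fmr1-KO library lay above every WT library, and the replicates lay close together. The means were 74.4 ± 1.17 CPM in WT against 85.9 ± 1.19 CPM in Fmr1-KO (SD, n = 3 each), a difference of 15.4%. The log2FC was 0.21 (SE 0.03, 95% interval 0.13 to 0.28) with an edgeR adjusted P of 5.13e-05. Leaving out each library in turn gave values from 0.19 to 0.22. Among the alternatives run, the call was lost only against a minimum fold-change of 1.2 (edgeR adjusted P 1.00). The summed level of cycling cell markers moved with it, and its part in the Trp53 difference was not tested.

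Mdm2 (chromosome 10, 117688875 to 117710758, minus strand) encodes the ligase that p53 induces and that in turn degrades p53. Its levels were 84.8, 84.3 and 87.8 CPM in the WT libraries and 91.2, 90.5 and 88.0 CPM in the Fmr1-KO libraries. The Fmr1-KO libraries lay above the WT libraries, but Fmr1-KO replicate 3 exceeded WT replicate 3 by very little. The log2FC of 0.07 (SE 0.03, 95% interval -0.0023 to 0.14) was not called, with an edgeR adjusted P of 0.113. With library totals alone in place of TMM it was called (0.10, edgeR adjusted P 0.0278). Mdm4, the partner of MDM2 that masks p53 and that was picked for mention after its value was seen, had means of 143.4 ± 1.21 CPM in WT against 163.7 ± 4.53 CPM in Fmr1-KO (SD, n = 3 each), and was called higher with a log2FC of 0.19 (edgeR adjusted P 4.79e-05).

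Cdkn1a (chromosome 17, 29090976 to 29100727, plus strand), which carries the consensus-like stretch printed above, encodes the cyclin-dependent kinase inhibitor p21. Its levels were 81.2, 81.2 and 80.3 CPM in the WT libraries, from 2822, 2686 and 2680 counts, and 78.5, 74.8 and 68.1 CPM in the Fmr1-KO libraries, from 2554, 2291 and 2370 counts. All 3 Fmr1-KO libraries lay below the WT libraries, but they were spread more widely, with replicate 1 nearest to WT and replicate 3 farthest from it. The means were 80.9 ± 0.525 CPM in WT against 73.8 ± 5.28 CPM in Fmr1-KO (SD, n = 3 each), with a log2FC of -0.13 (SE 0.04, 95% interval -0.22 to -0.04, edgeR adjusted P 0.0169). The call rested on single libraries. Without Fmr1-KO replicate 3 the log2FC was -0.08 (edgeR adjusted P 0.151), and without WT replicate 1 it was -0.13 (adjusted P 0.0513). It was also lost with library totals alone (-0.11, edgeR adjusted P 0.0558). On the opposite strand, AC167363.2 overlaps 7.68% of the exonic bases of Cdkn1a, which the stranded counting keeps apart.

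Ccng1 (chromosome 11, 40748552 to 40755311, minus strand), which encodes cyclin G1, a p53 target that recruits a phosphatase to MDM2, had the highest counts of the members. Its levels were 196.3, 205.6 and 190.1 CPM in the WT libraries and 202.9, 213.7 and 182.6 CPM in the Fmr1-KO libraries. The genotypes overlapped fully, with the Fmr1-KO libraries holding both the highest and the lowest value. The log2FC was 0.02 (95% interval -0.07 to 0.11, edgeR adjusted P 0.794), and its sign turned when WT replicate 3 or Fmr1-KO replicate 2 was left out. Although Ccng1 and Cdkn1a both hold a close match to the consensus in their promoters, their values thus lay on different sides of the call, and the difference between the 2 genes was not tested.

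The death genes Bax, Bbc3 and Pmaip1 were not called. Bax (chromosome 7, 45461697 to 45466898, minus strand) encodes a pore-forming effector of the mitochondrial outer membrane, and its levels were 73.7, 76.3 and 75.2 CPM in the WT libraries and 73.8, 71.3 and 70.5 CPM in the Fmr1-KO libraries. The genotypes overlapped through WT replicate 1 and Fmr1-KO replicate 1 alone, and the log2FC was -0.06 (95% interval -0.14 to 0.01, edgeR adjusted P 0.176). A protein-coding model on the same strand, Gm45808, shares 12.2% of the exonic bases of Bax, and reads from these bases cannot be told apart.

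Bbc3 (chromosome 7, 16308393 to 16318205, plus strand) encodes PUMA and Pmaip1 (chromosome 18, 66458533 to 66465565, plus strand) encodes NOXA, the BH3-only proteins through which p53 releases BAX and BAK. Bbc3 was at 9.81, 12.4 and 11.8 CPM in the WT libraries and at 11.4, 10.9 and 9.83 CPM in the Fmr1-KO libraries. The lowest values nearly matched, whereas WT replicates 2 and 3 lay above every Fmr1-KO library, and the log2FC was -0.08 (95% interval -0.26 to 0.10, edgeR adjusted P 0.501). Pmaip1 was at 5.75, 5.29 and 4.88 CPM in the WT libraries and at 4.95, 4.51 and 4.48 CPM in the Fmr1-KO libraries, from 138 to 200 counts. Its highest Fmr1-KO library exceeded its lowest WT library. The log2FC was -0.19 (95% interval -0.41 to 0.03, edgeR adjusted P 0.148), so the interval allows a fall as large as 0.41 on the log2 scale. Counting error alone gave a coefficient of variation of 7.77% for Pmaip1 and 5.23% for Bbc3, against 1.23% for Ccng1. The coefficient observed between replicates was 8.19% in WT and 5.66% in Fmr1-KO for Pmaip1. For Bbc3 it was 11.9% in WT and 7.54% in Fmr1-KO, more than counting error alone.

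Phlda3 (chromosome 1, 135766119 to 135769136, plus strand), which encodes a p53-induced repressor of AKT signalling, was at 21.4, 22.3 and 23.3 CPM in the WT libraries and at 22.5, 20.7 and 21.0 CPM in the Fmr1-KO libraries. The genotypes overlapped, and the log2FC was -0.06 (95% interval -0.18 to 0.06, edgeR adjusted P 0.444). Eda2r (chromosome X, 97333840 to 97377216, minus strand), which encodes a p53-induced receptor of the TNF receptor family for ectodysplasin A2, was at 21.5, 22.05 and 21.0 CPM in the WT libraries and at 20.3, 22.1 and 19.8 CPM in the Fmr1-KO libraries. The single highest value belonged to Fmr1-KO replicate 2, and the log2FC was -0.06 (95% interval -0.18 to 0.06, edgeR adjusted P 0.465). Eda2r lies on the X chromosome, and the sex of the pups is not given in the labels. Xist, expressed from the inactive X, had a log2FC of 1.58 in Fmr1-KO, and the Y-linked Ddx3y, Kdm5d and Eif2s3y were called lower, at -0.28, -0.15 and -0.47. The part of such a shift between the sexes in the values of Eda2r and of the autosomal members was not tested.

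Trp53inp1 (chromosome 4, 11156431 to 11174379, plus strand) rose most among the members. It encodes a stress-induced nuclear and autophagy protein that helps to phosphorylate p53 and is itself a p53 target. Its levels were 108.1, 109.7 and 102.2 CPM in the WT libraries, from 3757, 3628 and 3409 counts, and 127.6, 135.9 and 118.5 CPM in the Fmr1-KO libraries, from 4150, 4160 and 4122 counts. Every Fmr1-KO library lay above every WT library, with a gap of several CPM between Fmr1-KO replicate 3 and WT replicate 2. The means were 106.7 ± 3.99 CPM in WT against 127.3 ± 8.71 CPM in Fmr1-KO (SD, n = 3 each), a difference of 19.4%, and the log2FC was 0.25 (SE 0.04, 95% interval 0.17 to 0.34, edgeR adjusted P 5.12e-05). Leaving out each library gave 0.21 to 0.30. Against a minimum fold-change of 1.2 the call was lost (edgeR adjusted P 0.983).

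**Figure D2:**
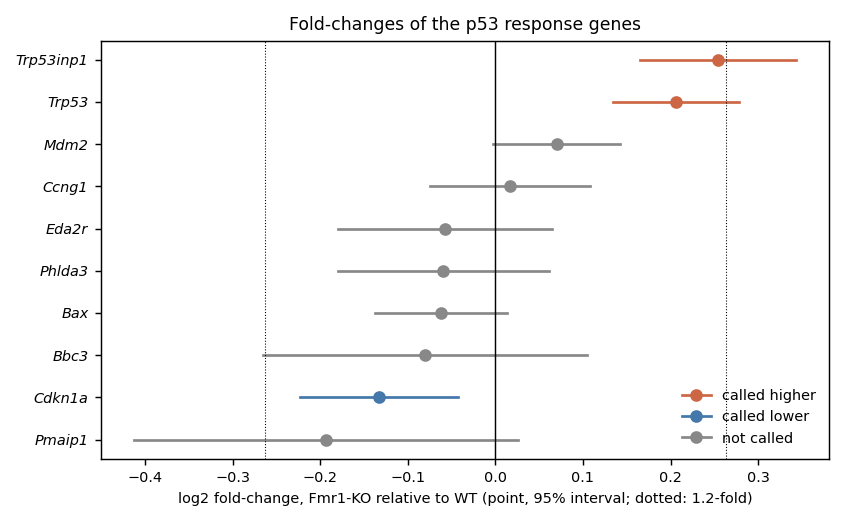
Log2 fold-changes of the 10 members, Fmr1-KO relative to WT (horizontal axis), with points for the estimate, bars for its 95% interval, colours for the call and dotted lines at a fold-change of 1.2 in either direction. The intervals of Trp53inp1 and Trp53 lie above 0 and that of Cdkn1a below it, while the interval of Pmaip1 is the widest, from -0.41 to 0.03.

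Compared per kilobase of exon, the members fell into an order that was clear at its ends and overlapped in part in the middle. The length was that of all annotated exons, whichever transcripts were expressed, which limits comparison between genes. In WT the order of mean levels was Ccng1 (56.2 CPM per kb), Bax (47.6), Cdkn1a (22.8), Trp53 (18.4), Mdm2 (16.8), Trp53inp1 (16.5), Phlda3 (14.3), Bbc3 (5.33), Eda2r (3.66) and Pmaip1 (1.94). Mdm2 and Trp53inp1 were the only neighbours in that order whose libraries overlapped. In Fmr1-KO the order was Ccng1 (56.9 CPM per kb), Bax (45.6), Trp53 (21.2), Cdkn1a (20.8), Trp53inp1 (19.7), Mdm2 (17.7), Phlda3 (13.7), Bbc3 (5.05), Eda2r (3.52) and Pmaip1 (1.70). Trp53 and Cdkn1a overlapped there, as did Cdkn1a and Trp53inp1. The order at both ends was thus the same in both genotypes, and the middle ranks held by Trp53, Cdkn1a, Mdm2 and Trp53inp1 differed.

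Ratios of counts within a library, which do not depend on scaling between libraries, separated the genotypes for the pairs examined. The pairs were chosen after the values had been seen, so their separation is a description without a test. Levels of single genes were already separated for 51.7% of all tested genes, and no share of all gene pairs was computed. There were 1.08, 1.09 and 1.10 counts of Cdkn1a per count of Trp53 in the WT libraries and 0.910, 0.863 and 0.806 in the Fmr1-KO libraries. Every WT ratio thus lay above every Fmr1-KO ratio, by counts that are not corrected for transcript length. The ratio of Mdm2 to Trp53 was 1.12, 1.13 and 1.201 in WT and 1.06, 1.04 and 1.04 in Fmr1-KO, and that of Bax to Trp53 was 0.977, 1.02 and 1.03 in WT and 0.855, 0.822 and 0.834 in Fmr1-KO. Relative to Trp53 mRNA, the mRNAs of these 3 targets were thus all lower in Fmr1-KO. As Trp53 itself was higher there, any gene that rose less gives a lower ratio, and Mdm2 and Bax were not called. Trp53inp1, also a p53 target, rose by a log2FC of 0.25 against 0.21 for Trp53, and its ratio to Trp53 was not examined. The ratio of Trp53inp1 to Cdkn1a was 1.33, 1.35 and 1.27 in WT and 1.62, 1.82 and 1.74 in Fmr1-KO.

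**Figure D3:**
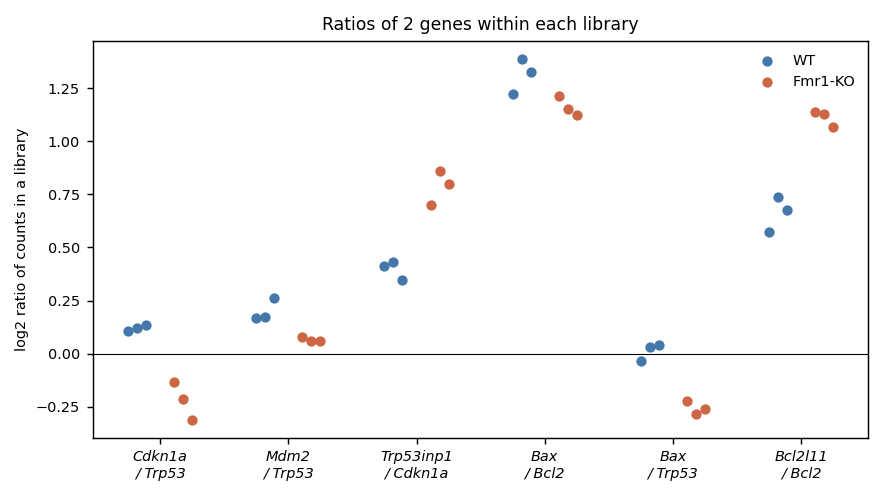
Log2 ratios of the counts of 2 genes in the same library (vertical axis) for 6 pairs of genes, with points for the 3 WT and 3 Fmr1-KO libraries. The 2 genotypes do not overlap for any of the 6 pairs, which were chosen after the values had been seen. The ratio of Cdkn1a to Trp53 lies above 0 in all WT libraries and below 0 in all Fmr1-KO libraries.

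The rest of the pathway was described with 89 further genes in 7 lists, of which 86 had enough counts. The lists share some genes, and those of the BCL2 family also hold Bax, Bbc3 and Pmaip1. Of the 86, 27 were called higher and 15 lower, with a median log2FC of 0.03. The calls of this and each following list stand beside 20.7% of all tested genes called higher and 21.9% called lower. Among regulators of p53, 7 of 15 tested genes rose and the other 8 were not called, with a median of 0.06, or 0.13 with the stricter filter. The 4 of these 7 with the largest changes were the kinases that act upstream of p53 in the DNA damage response. Chek1, the checkpoint kinase of replication stress, had means of 10.6 ± 0.491 CPM in WT against 16.6 ± 0.498 CPM in Fmr1-KO (SD, n = 3 each) and rose by a log2FC of 0.65 (edgeR adjusted P 1.09e-07). Chek2, its counterpart downstream of ATM, rose by 0.40 (adjusted P 0.000342), and the damage-sensing kinases Atm and Atr rose by 0.38 (adjusted P 1.41e-06) and 0.35 (edgeR adjusted P 0.000116). Chek1 is known to be raised in dividing cells. The 21 markers of cycling cells had a median log2FC of 0.65, with Mki67 at 1.09, and their part in these values was not tested.

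Of 33 other p53 targets, 11 were called higher and 8 lower, with a median log2FC of 0.04. Calls in both directions were also common among all tested genes, at 20.7% higher and 21.9% lower. The median was 0.00737 without Fmr1-KO replicate 3 and 0.0747 without Fmr1-KO replicate 1. The largest rises were those of Steap3, an endosomal metalloreductase (0.65, adjusted P 3.05e-06), Pidd1, the scaffold that activates caspase-2 (0.52, adjusted P 5.44e-07), Ddit4, an inhibitor of mTORC1 (0.43, adjusted P 6.10e-07), and Sfn, the 14-3-3 sigma protein (0.42, edgeR adjusted P 0.00254). The largest falls were those of Zfp365, a protein involved in genome stability and neurite growth (-0.65, adjusted P 4.19e-11), Rprm, a G2 arrest gene (-0.49, adjusted P 2.81e-08), Plk2, an activity-induced kinase of neurons (-0.47, adjusted P 3.52e-10), and Gdf15, a stress cytokine (-0.45, edgeR adjusted P 0.0328). Zfp365, Rprm and Plk2 are also expressed in neurons, whose markers were lower in the same Fmr1-KO libraries, and the part of this in the 3 values was not tested. Gdf15 had only 44 to 68 counts, and its call was lost by DESeq2 (adjusted P 0.136) and without any of 5 single libraries, with -0.39 (edgeR adjusted P 0.114) without Fmr1-KO replicate 3. The count of falling targets was 5 without WT replicate 1 and 5 without Fmr1-KO replicate 3.

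**Figure D4:**
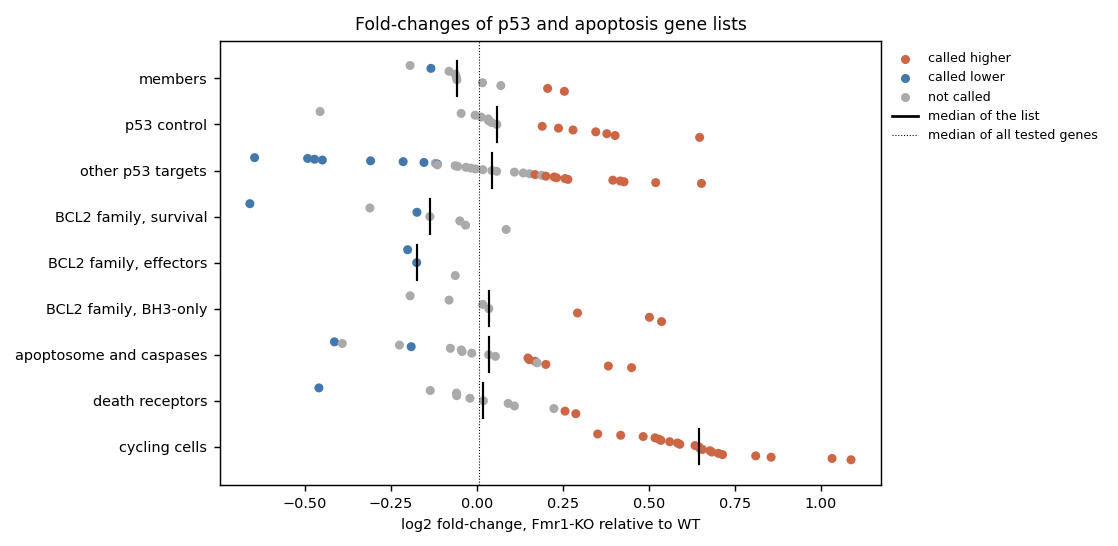
Log2 fold-changes, Fmr1-KO relative to WT (horizontal axis), of the tested genes of each list (rows), with points coloured by the call, solid bars at the list's median and a dotted line at the median of all tested genes, 0.01. The members and the other p53 targets spread to both sides of the dotted line, whereas all 21 markers of cycling cells lie to its right, around a median of 0.65.

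The BCL2 family, which p53 engages through Bax, Bbc3 and Pmaip1, moved unevenly. Of the 7 survival genes tested, 2 were called lower, and the median log2FC was -0.14, the value of the sparsely counted Bcl2a1a. The median was -0.04 both with the stricter filter and without Fmr1-KO replicate 1. Bcl2l2, which encodes BCL-W, fell from 39.1 ± 0.214 to 34.6 ± 0.996 CPM (SD, n = 3 each), a log2FC of -0.17 (edgeR adjusted P 0.00310). Against a minimum fold-change of 1.2 its call was lost. Bcl2 itself had a log2FC of 0.09 (adjusted P 0.169), Bcl2l1 of -0.03 (adjusted P 0.501) and Mcl1 of -0.05 (edgeR adjusted P 0.227), and none of these 3 was called. Bcl2a1b was called lower at -0.66 (edgeR adjusted P 0.0245) from 22 to 56 counts, and its near-identical copies Bcl2a1a and Bcl2a1d were not called, at -0.14 and -0.31. Reads that fit more than 1 of the 3 copies cannot be assigned to a single copy, so these values are uncertain. The Bcl2a1b call was lost by DESeq2 (adjusted P 0.0821) and without WT replicate 2 (-0.52, adjusted P 0.110), Fmr1-KO replicate 1 (-0.68, adjusted P 0.0526) or Fmr1-KO replicate 3 (-0.44, edgeR adjusted P 0.152), which each left 1 survival gene called. Bcl2a1 genes are known from myeloid cells, and the microglial markers fell in the same libraries. Their part in the value was not tested.

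Of the 3 effectors, Bak1 and Bok were called lower and Bax was not called, with a median log2FC of -0.17. Bak1, the partner of Bax in opening the outer membrane, fell from 47.3 ± 1.48 to 41.9 ± 2.38 CPM (SD, n = 3 each), with a log2FC of -0.17 (edgeR adjusted P 0.00440). Bok, an effector that is less dependent on the other members of the family, had a log2FC of -0.20 (adjusted P 0.0117), and without WT replicate 3 its call was lost (-0.14, edgeR adjusted P 0.0874). Neither Bak1 nor Bok was called against a minimum fold-change of 1.2.

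Of the 7 BH3-only genes tested, 3 were called higher, and the members Bbc3 and Pmaip1 were not among them. The median log2FC of the list was 0.04, and it was -0.0182 without Fmr1-KO replicate 1. It was 0.165 with the stricter filter and 0.163 with no filter. Bcl2l11, which encodes BIM, rose from 47.0, 48.7 and 47.9 CPM in the WT libraries to 70.2, 70.3 and 67.9 CPM in the Fmr1-KO libraries. Hrk, a BH3-only gene induced in neurons by loss of trophic support, rose from 37.4, 38.05 and 37.7 CPM to 54.0, 52.8 and 53.4 CPM. For both genes the replicates of a genotype lay close together and the genotypes were far apart. The log2FC values were 0.54 (adjusted P 2.80e-10) for Bcl2l11 and 0.50 (edgeR adjusted P 1.75e-09) for Hrk, and both genes were still called against a minimum fold-change of 1.2 (edgeR adjusted P 1.03e-06 and 1.18e-05). Bmf rose by 0.29 (edgeR adjusted P 0.0105), a call that was lost without WT replicate 1 (0.23, adjusted P 0.0745) or Fmr1-KO replicate 2 (0.19, edgeR adjusted P 0.0894). Bad and Bid had log2FC values of 0.04 and 0.02 and were not called. Within each library there were 1.49, 1.67 and 1.60 counts of Bcl2l11 per count of Bcl2 in WT and 2.20, 2.19 and 2.10 in Fmr1-KO, whereas the ratio of Bax to Bcl2 was 2.33, 2.62 and 2.51 in WT and 2.32, 2.22 and 2.18 in Fmr1-KO. The 2 ratios thus differed between the genotypes in opposite directions, but that of Bax to Bcl2 barely separated them. The lowest WT value of that ratio was 2.33 and the highest Fmr1-KO value 2.32, and neither Bax nor Bcl2 was called.

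**Figure D5:**
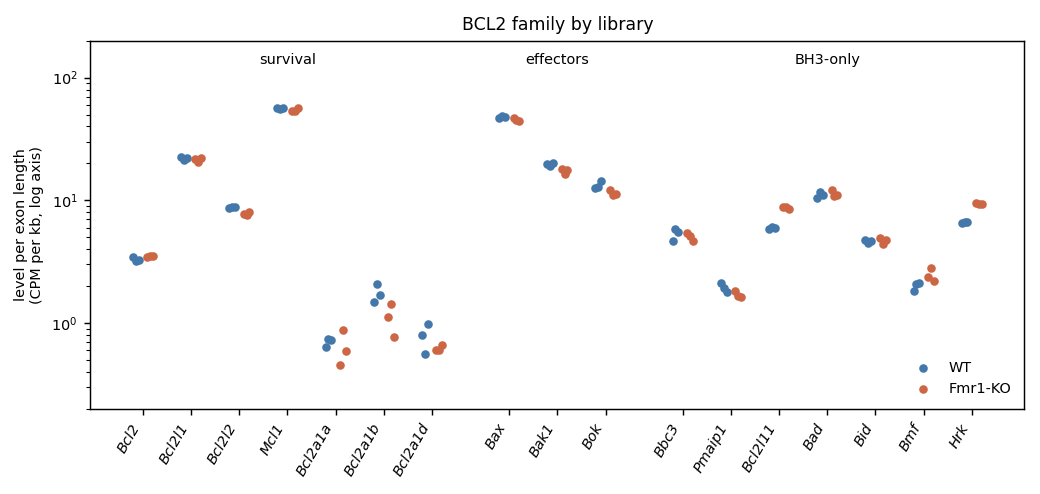
Levels of the tested BCL2 family genes per kilobase of exon (CPM per kb, log axis) in each of the 3 WT and 3 Fmr1-KO libraries, grouped as survival genes, effectors and BH3-only genes. Bcl2l11 and Hrk stand apart between the genotypes, with Fmr1-KO higher, while Bbc3 and Pmaip1 overlap.

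Downstream of the mitochondrion, 6 of 17 genes of the apoptosome and caspases were called higher and 2 lower, with a median log2FC of 0.03. Casp2, the caspase activated through Pidd1, rose from 51.7 ± 1.63 to 70.6 ± 1.18 CPM (SD, n = 3 each), a log2FC of 0.45 (edgeR adjusted P 4.88e-09). The apoptosome scaffold Apaf1 rose by 0.20 (adjusted P 0.000555) and the mitochondrial flavoprotein Aifm1 by 0.17 (edgeR adjusted P 0.00141). Dffa, the inhibitor of the caspase-activated DNase, had a log2FC of -0.41 (adjusted P 2.19e-05), and Cycs, which encodes cytochrome c, of -0.19 (edgeR adjusted P 0.00311). The count of falling genes in this list was 4 without Fmr1-KO replicate 3, and the median was 0.00375 without WT replicate 2 and 0.0655 without Fmr1-KO replicate 1.

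Of 11 tested death receptor genes, 2 were called higher and 1 lower, with a median log2FC of 0.02 that ran from -0.0111 (without WT replicate 3) to 0.0815 (without Fmr1-KO replicate 1) when single libraries were left out. Tnfrsf21, the death receptor DR6 of neurons, fell from 135.0 ± 4.25 to 98.2 ± 4.76 CPM (SD, n = 3 each), with a log2FC of -0.46 (edgeR adjusted P 2.88e-09). The adaptor Fadd rose by 0.29 (edgeR adjusted P 0.00918), and without Fmr1-KO replicate 1 it was not called (0.24, adjusted P 0.0516). Tnfrsf10b, a receptor for TRAIL and a p53 target, rose by 0.26 (edgeR adjusted P 0.0414), a call lost by DESeq2 (adjusted P 0.123) and without WT replicate 1, WT replicate 3, Fmr1-KO replicate 1 or Fmr1-KO replicate 2 (0.20 to 0.27, edgeR adjusted P 0.0660 to 0.164).

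Outside the members, the genes whose pattern over the 6 libraries was most like that of Trp53 were Lamp2, Anp32b and Rcbtb2. The root-mean-square difference in log2 CPM, each taken relative to its WT mean, was 0.0112, 0.0119 and 0.0119, in a search of 10754 genes whose mean reached 10 CPM. For Cdkn1a they were Elk3, Ncoa4 and Tomm5, at 0.0123, 0.0284 and 0.0287. Of these 3, Ncoa4 was called, with a log2FC of -0.13 (edgeR adjusted P 0.0253), and Elk3 and Tomm5 were not. The genes were picked by their likeness over these same libraries, so fold-changes near those of Trp53 and Cdkn1a follow from the choice.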

How the data were processed

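RNA-seq counts of 3 WT and 3 Fmr1-KO libraries, grouped by the labels' titles, were analysed. The authors deposited raw counts per gene name, without normalization. By their account, poly(A)-selected stranded libraries were trimmed with FastP, aligned to GRCm38 by STAR 2.7.6a and counted on exons in the reverse-stranded mode of featureCounts (Subread 2.0.1), which does not resolve near-identical copies. Of 55367 rows, 31650 had a count.

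Counts were fitted here with edgeR 4.0.16 in R 4.3.3 (filterByExpr, TMM, glmQLFit, glmQLFTest, 2-sided, genotype as sole term), and P values were adjusted over all 16976 tested genes by Benjamini-Hochberg. The SE is the absolute log2 fold-change divided by the square root of F. Exon lengths and positions came from GENCODE M21. Replicates differed by more than counting noise (chi-square per degree of freedom at least 2.39 for any pair). The code was tested on simulated data.

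The members and lists were chosen with earlier results of these data known. Named were all members, the BCL2 family, up to 4 called genes per direction and list with the largest changes at a mean of at least 1 CPM, up to 3 markers per cell type, Fmr1, and the 3 genes most like Trp53 and Cdkn1a; 1 gene so selected is not reported here. Alternatives were DESeq2 1.42.0, RLE, upper-quartile and total scaling, no filter, a stricter filter (means of 10 counts and 5 CPM), a replicate block, a minimum fold-change of 1.2, removal of the 20 most abundant genes and leaving out each library.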

Additional observations from a re-analysis of the deposited data

How the results depend on the processing

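Of 149 alternative values for members, 140 had the same sign and call as reported, 6 lost the call, 1 gained it and 2 changed sign, and Pmaip1 did not pass the stricter filter. Trp53 and Trp53inp1 stayed called under each alternative but the minimum fold-change of 1.2, which left 0 members higher, 0 members lower, 883 genes higher and 1340 genes lower by edgeR. Under the same minimum, the called genes were 2 higher among p53 regulators, 4 higher and 3 lower among other p53 targets, 2 higher and 1 lower among apoptosome genes, 3 higher among progenitor markers and 2 lower among astrocyte markers. That minimum also left 0 survival genes and 0 effectors of the BCL2 family lower, and 0 death receptor genes higher. DESeq2 called 2 members higher and 1 lower. Cdkn1a was the member called lower. That count was 0 with library totals alone and ran from 0 (without WT replicate 1 or Fmr1-KO replicate 3) to 1 when single libraries were left out; Mdm2 was called higher with library totals alone. Among genes that were not called, leaving out single libraries gave -0.0347 to 0.0771 for Ccng1 (below 0 at -0.00998 without WT replicate 3 and at -0.0347 without Fmr1-KO replicate 2), -0.410 to 0.0583 for Bcl2a1a, -0.0187 to 0.0797 for Bad (-0.0101 without WT replicate 1) and -0.0182 to 0.0601 for Bid (-0.00550 without WT replicate 2); Bcl2a1a, Bad and Bid changed sign without Fmr1-KO replicate 1. The cause was not tested. Libraries with the same replicate number were little alike in their deviations from the genotype means (correlations -0.0930, 0.0737 and 0.0323). With 3 libraries per genotype, these values cannot settle whether the libraries were paired. A fit with the replicate block gave 3694 lower and 3488 higher genes, with 1 member lower and 2 higher as without it. Library totals alone shifted the median of all genes to 0.03 and called 4207 genes higher and 3212 lower. Among the members, counting error was largest for Pmaip1 and Bbc3, and p53 protein was not measured.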
